A study of Mus musculus with 2 samples.

Results

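The 10 genes described here encode the receptors of bone morphogenetic proteins (BMPs) and the Smad proteins that carry their signal in limb buds of the mouse embryo. They are the type I receptors Bmpr1a, Bmpr1b and Acvr1, the type II receptor Bmpr2, the receptor-activated Smads Smad1, Smad5 and Smad9, the common partner Smad4 and the inhibitory Smads Smad6 and Smad7. They were chosen by name, and each matched 1 of the 43346 rows with Ensembl identifiers in the gene tables and together 42 of the 129984 rows of the transcript tables. The study measured total RNA longer than 200 nt from limb of B6NCrl mouse embryos at embryonic day 10.5, with male and female embryos pooled. There was 1 group and no treatment, mutant or other stage: limbs of 69 embryos were pooled for replicate 1, and those of 51 for replicate 2. Each library was made from 10 ng of RNA isolated by the mirVana method, with spike-in RNAs added. The labels call the pools biological replicates and cite the same donor record for both, so how independent the pools were is known no further. No contrast between conditions exists, so the levels of the 10 genes within the tissue were described, the genes were set against each other, and the 2 libraries were compared.

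BMPs are secreted ligands that bring together type I and type II receptors at the cell surface. The type II receptor phosphorylates the type I receptor, which in turn phosphorylates Smad1, Smad5 or Smad9. These join Smad4 and enter the nucleus, while Smad6 and Smad7 block the relay and are themselves induced by it. In the limb bud BMP signalling acts in the ectodermal ridge, in dorsal-ventral patterning, in the death of cells between the digits and in the condensation of cartilage precursors, where Bmpr1b is a known marker.

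The tissue label was checked against markers. All 5 mesenchyme markers (Prrx1, Prrx2, Twist1, Msx1 and Pdgfra) reached 1 TPM (a transcript abundance normalised to length and library) in both libraries, as did all 6 markers of ectoderm and ridge, all 5 of endothelium and all 5 of red blood cells. Of 4 neural markers 1 reached that level, Tubb3 at 6.59 and 5.76 TPM in replicates 1 and 2. Sox2, Pax6 and Elavl3 had means of 0.11, 0.10 and 0.05 TPM. Expected counts (estimated reads per gene) totalled 40509328 and 43983028. Counts of the libraries were further apart than counting noise allows (31.2 for the chi-square divided by its degrees of freedom), so each was treated as its own sample. In bulk tissue, fewer cells of a type and less RNA per cell cannot be told apart.

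Of the 10 genes, 9 were expressed at 1 TPM or more in both libraries, against 11853 of 21474 protein-coding genes. Bmpr1a was highest, followed by Smad5, Smad1, Smad4, Smad6, Bmpr2, Bmpr1b, Smad7 and Acvr1, and Smad9 was lowest. A pair of genes was called different where the deposited TPM intervals of the genes lay apart in the same direction in both libraries. These intervals, whose level the tables do not state, cover the error of estimation within a library only. By this rule 6 of the 9 neighbours in the order differed. The exceptions were Bmpr2 against Bmpr1b, Bmpr1b against Smad7 and Smad7 against Acvr1, so the order within these 4 genes is not settled. Of all 45 pairs among the 10 genes 39 were called, and the other 6 were the pairs among Bmpr2, Bmpr1b, Smad7 and Acvr1. The share of called pairs among all genes was not computed, so these counts describe the order of the 10 genes only.

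**Figure D1:**
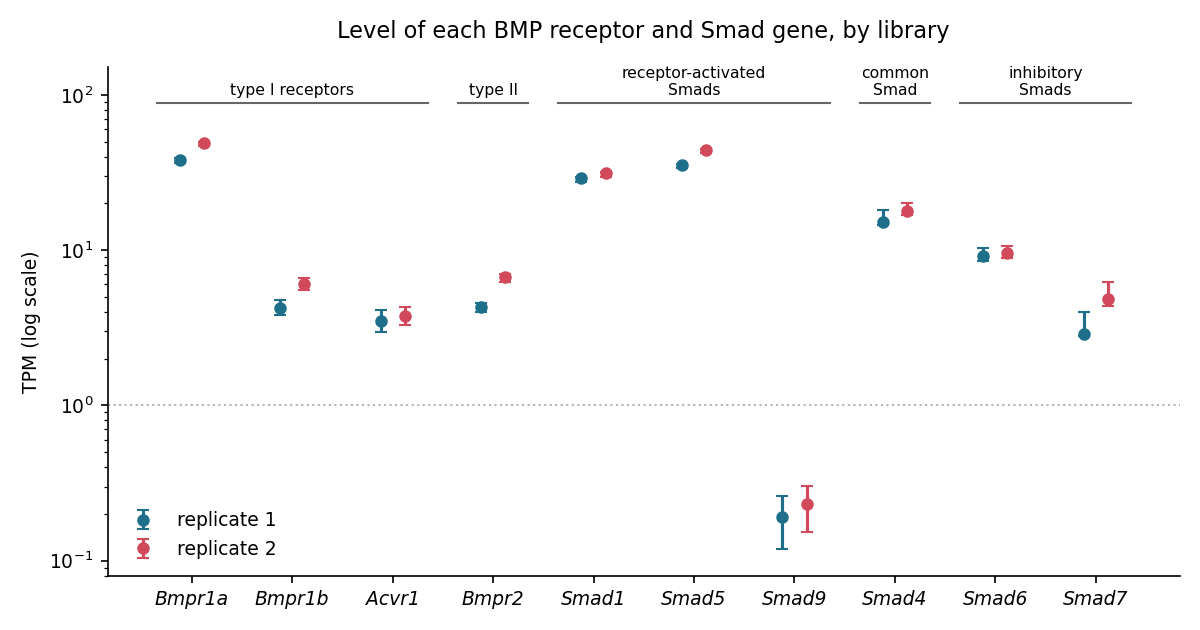
Level of each of the 10 genes in TPM on a log axis, grouped by role, with 1 point per library and bars for the deposited interval of the TPM. The dotted line marks 1 TPM. Bmpr1a, Smad5 and Smad1 lie above 25 TPM in both libraries, whereas Smad9 lies below 1 TPM in both.

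The type I receptors are kinases that share a run of alternating serine and glycine codons just before the kinase part, which the type II receptor phosphorylates. This stretch is shown because it is the point where the receptors of the set act on each other. Coding sequences were taken from GENCODE M21 transcripts, 5′ to 3′, and the capitals mark the 6 alternating codons. They are codons 216 to 221 of 532 in Bmpr1a, 186 to 191 of 502 in Bmpr1b and 190 to 195 of 509 in Acvr1.
Bmpr1a: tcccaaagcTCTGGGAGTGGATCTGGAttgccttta
Bmpr1b: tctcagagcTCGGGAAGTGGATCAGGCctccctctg
Acvr1: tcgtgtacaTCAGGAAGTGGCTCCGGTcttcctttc
Over their whole coding sequences Bmpr1a and Bmpr1b were 68.3% identical, and Acvr1 was 55.2% identical to Bmpr1a and 57.5% to Bmpr1b. Reads of these paralogs were not divided between genes by the estimate in the case of Bmpr1b and Acvr1, whose counts were whole with a posterior SD of 0. The counts of Bmpr1a had a posterior SD of 2.01 and 2.43 reads.

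Bmpr1a made up most of the type I receptor RNA. Bmpr1a (ENSMUSG00000021796.10, chromosome 14, 34410734 to 34503341 on the minus strand, GRCm38) had 5708 and 7652 expected counts. Its level was 37.97 TPM in replicate 1 (interval 36.2 to 38.9) and 49.0 TPM in replicate 2 (46.8 to 49.8), a mean of 43.5 ± 7.76 TPM (SD, n = 2; every ± below is the same). Bmpr1a stood above 68.6% of the expressed protein-coding genes. The antisense gene Gm17110 overlaps it and held 47.9 and 54.5 counts. Whether counting used strand is not given in the sources used here, so reads in the overlap cannot be assigned with certainty.

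Bmpr1b (ENSMUSG00000052430.11, chromosome 3, 141837136 to 142169425 on the minus strand) had 472 and 765 counts. It was at 4.26 TPM (3.82 to 4.78) and 6.06 TPM (5.56 to 6.64), a mean of 5.16 ± 1.27 TPM. Bmpr1a was therefore 8.91-fold and 8.08-fold above Bmpr1b in replicates 1 and 2, with the intervals far apart in both.

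Acvr1, also called ALK2, is a type I receptor for ligands such as Bmp6 and Bmp7. Acvr1 (ENSMUSG00000026836.11, chromosome 2, 58388644 to 58567157 on the minus strand) had 241 and 281 counts. It was at 3.50 TPM (2.98 to 4.09) and 3.75 TPM (3.30 to 4.29), a mean of 3.62 ± 0.177 TPM. Bmpr1a exceeded Acvr1 10.8-fold and 13.1-fold. Acvr1 and Bmpr1b were not called different, since their intervals overlapped in replicate 1 and lay apart, with Acvr1 lower, in replicate 2 only.

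Summed over the 3 type I receptors, Bmpr1a took 83.0% and 83.3% of the TPM, Bmpr1b 9.32% and 10.3%, and Acvr1 7.65% and 6.38%. The share of Bmpr1a moved by less than 1 percentage point between the libraries. These are shares of RNA and carry no information on receptor protein at the surface.

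**Figure D2:**
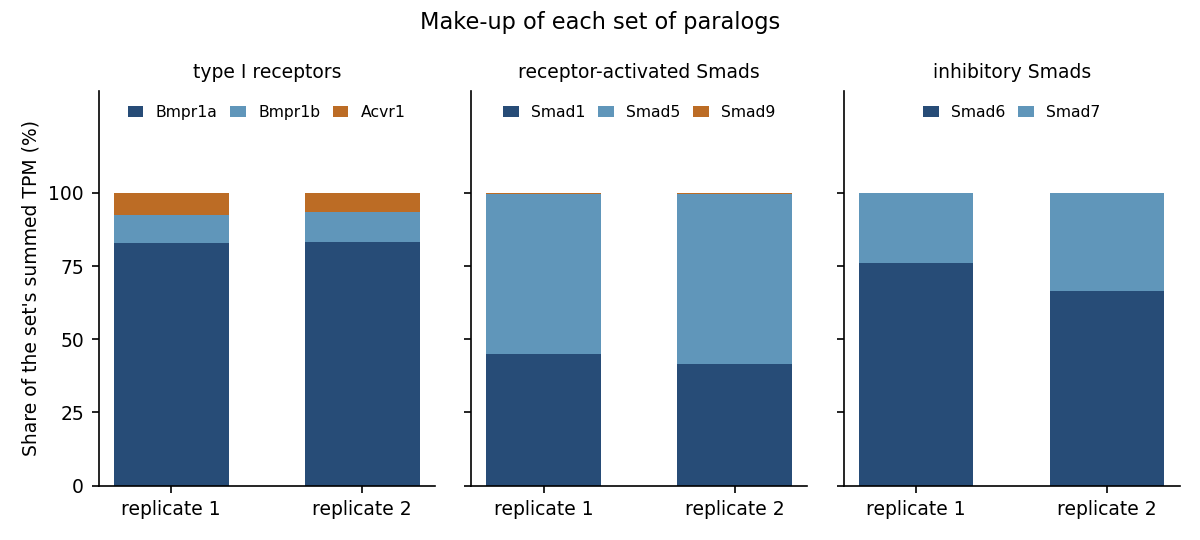
Share of each gene in the summed TPM of its set (percent) for the 3 type I receptors, the 3 receptor-activated Smads and the 2 inhibitory Smads, with 1 bar per library. Bmpr1a fills 83.0% and 83.3% of the first set, and Smad9 at 0.296% and 0.305% of the second is too thin to see.

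Most of the Bmpr1b RNA was assigned to 2 annotated starts that lie far apart. Its transcript ENSMUST00000029948, which starts at 141982264, was at 2.81 and 4.67 TPM and held 65.9% and 77.1% of the gene. ENSMUST00000106230, which starts 187161 bases upstream at 142169425, was at 1.34 and 1.21 TPM and held 31.4% and 20.0%. By expected counts ENSMUST00000029948 held 83.3% and 89.0%, since its model is longer (5349 nt against 2147 nt for ENSMUST00000106230). The intervals of these transcripts lay apart in both libraries. Both encode the same reading frame of 1506 nt without the stop codon, and the 4 transcripts with this length of frame held 100% and 98.7% of the gene's TPM. The level of ENSMUST00000106230 overlapped between libraries (0.820 to 1.72 and 0.691 to 1.70 TPM), while the intervals of ENSMUST00000029948 did not (2.36 to 2.999 and 4.08 to 4.90 TPM).

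The 250 bases upstream of the leading Bmpr1b start are shown because they held few CpGs. The sequence is from RefSeq (GRCm38.p6), 5′ to 3′ on the minus strand, and spans chr3:141982265-141982514. The capitals mark matches on either strand to the GC box (GGGCGG), the CCAAT box (CCAAT), the TATA motif (TATAAA) and the Smad GC motif (GGCGCC).
Bmpr1b leading start: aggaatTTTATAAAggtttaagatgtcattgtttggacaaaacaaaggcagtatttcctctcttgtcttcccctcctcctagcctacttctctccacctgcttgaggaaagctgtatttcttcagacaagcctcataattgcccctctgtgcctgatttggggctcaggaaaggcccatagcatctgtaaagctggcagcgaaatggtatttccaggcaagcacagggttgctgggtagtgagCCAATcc
It held 1 CpG, 1 CCAAT match, and 2 overlapping TATA matches on opposite strands near its far end, and no GC box or Smad GC motif. It also held 1 match, not in capitals, to the Smad motif CAGAC, which 42.2% of windows held. Of 32841 windows of this length in the RefSeq table, 32.7% held a GC box, 33.9% a CCAAT match, 12.4% a TATA match and 9.59% a Smad GC motif. The median window held 6 CpGs, with quartiles of 2 and 16. Windows were found for 8 of the 10 genes, 12 windows in all. Those of the 7 genes other than Bmpr1b held between 22 and 46 CpGs, and the other 2 windows of Bmpr1b held 5 each. Not all of these lie at a leading start. Transcripts starting within 100 bases held 0% of the TPM at the Bmpr2 window and 0% and 0.81% at that of Bmpr1a. The leading Bmpr1a start at 34502687 lies inside the Bmpr1a window, but further than 100 bases from the RefSeq start. Such transcripts held 23.0% and 8.86% at the Acvr1 window. At the other 2 Bmpr1b windows they held 0% and 2.9%, and 0% and 1.33%. No window was found for the Bmpr1b start at 142169425. A match is a string of letters and not a shown binding site.

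Acvr1 was the only one of the 9 members with several transcripts whose leading transcript was not called above all its others. Such a call was made for 8 of the 9, and for 68.9% of the expressed protein-coding genes with several transcripts. The leading Acvr1 transcript ENSMUST00000112599 was at 2.30 TPM (1.31 to 2.89) and 3.18 TPM (2.25 to 3.52), with 65.8% and 85.0% of the gene. ENSMUST00000112601 was at 0.69 TPM (0.0193 to 1.34) and 0.33 TPM (0.001 to 0.929), with 19.7% and 8.86%, and its interval overlapped that of the leader in replicate 1. ENSMUST00000126407, annotated with a part of the reading frame only, held 11.2% and 4.25%. The 4 Acvr1 transcripts with a frame of 1527 nt together held 88.9% and 95.2%, and they differ in where they start. ENSMUST00000112601 starts 50556 bases upstream of the leader.

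Bmpr1a RNA came almost wholly from 1 transcript, ENSMUST00000049005, with 94.9% in each library. ENSMUST00000165280, whose coding sequence is 500 codons long and keeps the alternating serine and glycine codons, held 4.04% and 2.92%.

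**Figure D3:**
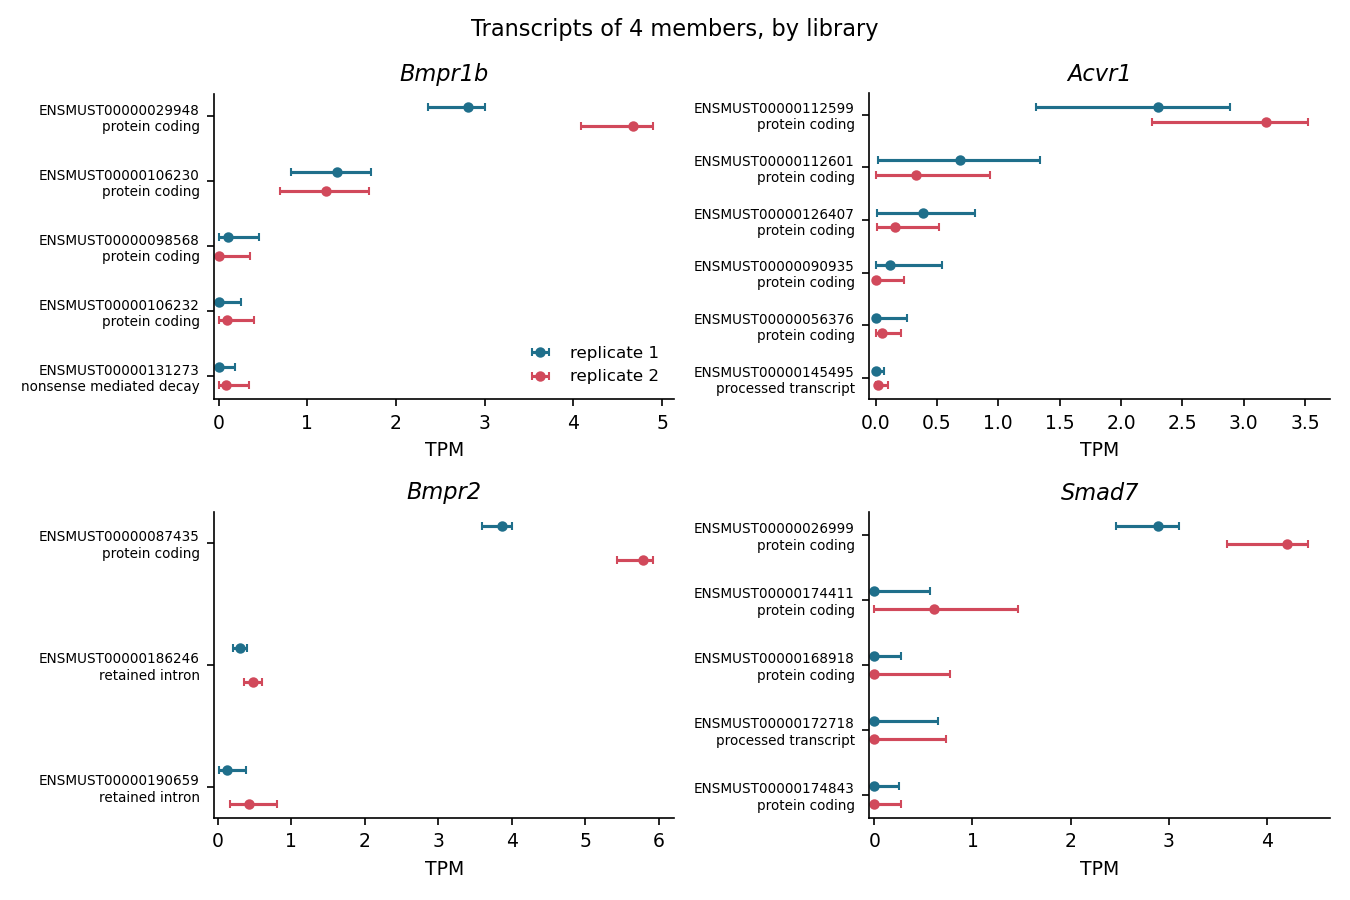
TPM of every transcript of Bmpr1b, Acvr1, Bmpr2 and Smad7, with 1 point per library and bars for the deposited interval, and the annotated class under each identifier. The leading transcript stands clear of the others for Bmpr1b, Bmpr2 and Smad7, and overlaps the next one for Acvr1 in replicate 1.

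Bmpr2, the type II receptor specific to the BMP branch, was lower than the type II receptors Acvr2a and Acvr2b. Bmpr2 (ENSMUSG00000067336.6, chromosome 1, 59763400 to 59879014 on the plus strand) had 1358 and 2125 counts. It was at 4.29 TPM (3.98 to 4.58) and 6.68 TPM (6.19 to 7.03), a mean of 5.49 ± 1.69 TPM. The summed type I receptor TPM was 10.7 and 8.80 times that of Bmpr2.

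Acvr2a and Acvr2b are type II receptors that bind activins and also serve BMPs. Acvr2b was at 65.1 and 51.6 TPM and Acvr2a at 9.87 and 13.5 TPM. On the log2 scale the level of Bmpr2 was below that of Acvr2b by -3.92 and -2.95 and below that of Acvr2a by -1.20 and -1.02, with intervals apart in both libraries for both. Bmpr2 was thus the lowest of these 3 type II receptors in each library.

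The leading transcript of Bmpr2, ENSMUST00000087435, held 90.2% and 86.5% of the gene's TPM. The rest lay in 2 transcripts annotated as retained introns, with 6.89% and 7.16% in ENSMUST00000186246 and 2.88% and 6.33% in ENSMUST00000190659. By expected counts the leading transcript held 97.2% and 96.8%, since the retained-intron models are shorter. Gm38125, a gene model on the same strand inside Bmpr2, held 89 and 70 counts.

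The receptor-activated Smads end in a serine-x-serine tail that the type I receptor phosphorylates, and the inhibitory Smads lack it. The last 30 coding bases are shown because they tell these classes apart. They were read from GENCODE M21 transcripts, 5′ to 3′ and including the stop codon, and the capitals mark the last 4 codons before the stop.
Smad1: ccccacaatcctattTCATCCGTGTCTtaa
Smad5: ccgctgaaccccattTCTTCTGTTTCAtag
Smad9: ccacacaaccctatcTCTTCAGTGTCTtaa
Smad6: ctggagatcctactcAACAACCACAGAtag
Smad1 short form: agcagtgcccacccgTCTCATTCGGGCtga
Smad1, Smad5 and Smad9 each have 3 serine codons among the last 4, and Smad6 has 0. Against Smad1, Smad5 differs at 10 of these 30 bases and Smad9 at 5. Over the whole coding sequence, Smad1 was 76.8% identical to Smad5, 77.2% to Smad9 and 46.7% to Smad6, and Smad5 was 73.5% identical to Smad9. The counts of all 6 Smad genes were whole with a posterior SD of 0. The short form of Smad1, annotated as ENSMUST00000109885, ends in another sequence with 2 serine codons and no serine-x-serine end, and held 1.13% and 1.82% of the Smad1 TPM.

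Smad5 and Smad1 supplied nearly all of the receptor-activated Smad RNA, and Smad9 stayed under 1 TPM. Smad5 (ENSMUSG00000021540.12, chromosome 13, 56703010 to 56742377 on the plus strand) had 5996 and 7850 counts. It was at 35.1 TPM (33.8 to 35.9) and 43.9 TPM (42.4 to 44.5), a mean of 39.5 ± 6.24 TPM. Smad5 was below Bmpr1a by a small step that held in both libraries, with Bmpr1a 1.08-fold and 1.11-fold higher.

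Smad1 (ENSMUSG00000031681.10, chromosome 8, 79338395 to 79399518 on the minus strand) had 2305 and 2603 counts. It was at 28.9 TPM (27.2 to 29.6) and 31.3 TPM (29.6 to 31.9), a mean of 30.1 ± 1.70 TPM. Smad5 was 1.21-fold and 1.40-fold above Smad1, and their intervals lay apart in each library.

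Smad9, also called Smad8, is the third Smad of the BMP branch. Smad9 (ENSMUSG00000027796.2, chromosome 3, 54755582 to 54801257 on the plus strand) had 26 and 33 counts. It was at 0.19 TPM (0.120 to 0.259) and 0.23 TPM (0.154 to 0.304), a mean of 0.21 ± 0.0283 TPM. Smad5 was 185-fold and 191-fold and Smad1 152-fold and 136-fold above Smad9. Of the summed TPM of the 3 genes, Smad5 held 54.7% and 58.2%, Smad1 45.0% and 41.5%, and Smad9 0.296% and 0.305%. Smad9 was thus detected in both libraries, at a level far under that of its paralogs.

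The windows upstream of Smad5 and Smad9 are shown because these paralogs lay more than 100-fold apart in RNA while both windows were rich in CpG. Both are RefSeq sequences (GRCm38.p6), 5′ to 3′ on the plus strand, of the 250 bases before the start of the gene's leading transcript, at chr13:56702760-56703009 for Smad5 and chr3:54755332-54755581 for Smad9. The capitals mark the same motifs as for Bmpr1b.
Smad5 leading start: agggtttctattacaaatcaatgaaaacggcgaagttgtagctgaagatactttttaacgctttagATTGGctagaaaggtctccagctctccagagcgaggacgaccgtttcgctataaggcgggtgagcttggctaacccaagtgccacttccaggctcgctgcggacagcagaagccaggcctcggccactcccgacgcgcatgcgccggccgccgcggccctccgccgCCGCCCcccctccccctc
Smad9 start: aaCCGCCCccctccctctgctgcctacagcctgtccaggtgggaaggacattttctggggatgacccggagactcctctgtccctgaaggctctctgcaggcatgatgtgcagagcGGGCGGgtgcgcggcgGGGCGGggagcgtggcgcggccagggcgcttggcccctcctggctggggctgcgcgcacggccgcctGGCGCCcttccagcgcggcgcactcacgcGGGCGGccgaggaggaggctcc
The Smad5 window held 22 CpGs, 1 GC box and 1 CCAAT match. The Smad9 window held 24 CpGs, 4 GC boxes and 1 Smad GC motif. Neither held a TATA match. RefSeq lists 2 more Smad5 windows: the one 42 bases downstream held 27 CpGs and 1 Smad GC motif, and the third held 27 CpGs and 7 GC boxes. The contrast in these motifs between Smad5 and Smad9 therefore depends on the window.

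Within Smad5, ENSMUST00000069557 held 98.0% and 98.5% of the gene's TPM, and the 3 transcripts with the frame of 1395 nt held 98.7% and 99.3%. Within Smad1, ENSMUST00000066091 held 97.4% and 96.5%. All 3 Smad1 transcripts share 1 start, and 4 of the 6 Smad5 transcripts start within a stretch from 56703010 to 56703066. Smad9 has 1 annotated transcript in the tables. Small RNA models inside Smad5 (Gm27271, Gm27301 and Gm27834) held 0 to 2 counts.

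Smad2 and Smad3 carry the signal of the activin and TGF-beta branch and also use Smad4. Smad2 was at 43.9 and 43.6 TPM and Smad3 at 22.6 and 23.2 TPM. Smad1 was below Smad2, by -0.60 and -0.48 on the log2 scale of levels, with the intervals apart in both libraries. Smad1, Smad2, Smad3 and Smad5 thus lay within a factor of 2 of each other, and Smad9 did not.

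Smad4, the common partner that the receptor-activated Smads of both branches need, lay below Smad1 and Smad5 and above Smad6 and Smad7. Smad4 (ENSMUSG00000024515.9, chromosome 18, 73639009 to 73703780 on the minus strand) had 1292 and 1540 counts. It was at 15.2 TPM (14.6 to 18.1) and 17.8 TPM (16.7 to 20.0), a mean of 16.5 ± 1.87 TPM. Smad4 was lower than Smad1 by -0.93 and -0.81 and lower than Smad5 by -1.21 and -1.30 on the log2 scale of levels, with intervals apart in both libraries. The sum of Smad1, Smad5 and Smad9 was 4.23 and 4.24 times the Smad4 level. ENSMUST00000025393 held 96.6% and 94.0% of the Smad4 TPM. The noncoding model ENSMUST00000131339 held 0.6% and 6% of it.

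Smad6 exceeded Smad7 in both libraries. Smad6 preferentially blocks the BMP branch, and Smad7 blocks both branches at the type I receptor. Smad6 (ENSMUSG00000036867.7, chromosome 9, 63953076 to 64022059 on the minus strand) had 699 and 762 counts. It was at 9.13 TPM (8.49 to 10.3) and 9.55 TPM (8.91 to 10.6), a mean of 9.34 ± 0.297 TPM. As a ratio of TPM between libraries, Smad6 had the smallest difference of the 10 (1.05), while on TMM-scaled counts Smad1, Acvr1 and Smad4 differed less.

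Smad7 (ENSMUSG00000025880.7, chromosome 18, 75367529 to 75395935 on the plus strand) had 322 and 499 counts. It was at 2.89 TPM (2.80 to 4.02) and 4.81 TPM (4.35 to 6.22), a mean of 3.85 ± 1.36 TPM. Smad6 was 3.16-fold above Smad7 in replicate 1 and 1.99-fold in replicate 2, with intervals apart in both. Smad6 took 76.0% and 66.5% of the summed inhibitory Smad TPM and Smad7 24.0% and 33.5%. The receptor-activated Smads together stood at 5.34 and 5.26 times the inhibitory Smads.

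The Smad7 difference between libraries was 0.73 on the log2 scale of TPM and 0.43 on that of scaled counts, and the transcript estimate differed too. ENSMUST00000026999 held 100% of Smad7 in replicate 1 and 87.4% in replicate 2, where ENSMUST00000174411, a short model with a reading frame of 681 nt, was given 12.7% from 11.3 counts. The interval of ENSMUST00000174411 in replicate 2 reached down to 2.42e-06 TPM, so its presence was not settled. The effective length of Smad7, by which TPM divides the counts, was 4179 nt in replicate 1 and 3735 nt in replicate 2. All of the Smad6 TPM lay in ENSMUST00000041029.

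Other genes of the pathway were read from 9 lists of 70 genes. Of these, 57 (81.4%) were expressed in both libraries, against 55.2% of all protein-coding genes, and their median was 11.3 TPM, against 7.41 TPM for the 10 members and 2.76 TPM for all protein-coding genes. Among ligands 6 of 10 were expressed. Bmp4 was highest at 62.1 ± 3.32 TPM, followed by Bmp7 at 29.5 ± 4.71 and Bmp2 at 4.96 ± 2.34 TPM, and Bmp10 was lowest at 0.015 ± 0.0212 TPM.

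On the receptor side 8 of 10 other family receptors were expressed. The TGF-beta type I receptor Tgfbr1 led at 71.2 ± 9.94 TPM, with Acvr2b at 58.4 ± 9.53 and the endothelial co-receptor Eng at 23.7 ± 0.226 TPM, and Amhr2, the receptor of anti-Mullerian hormone, was at 0.07 ± 0.0707 TPM. Acvrl1, the type I receptor of endothelium, was above Acvr1 in both libraries, with Acvr1 lower by -0.78 and -0.88 on the log2 scale of levels. Bmpr1a was therefore high among the BMP type I receptors but lower than Tgfbr1. Of 5 co-receptors and decoys 4 were expressed, led by the decoy receptor Bambi at 22.5 ± 2.24 TPM, Neo1 at 19.6 ± 4.09 and Rgmb at 11.0 ± 2.40 TPM. Haemojuvelin, listed as Hfe2, was at 0.61 ± 0.141 TPM.

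Secreted antagonists reached 1 TPM in both libraries for 4 of 9 genes. Fstl1 stood at 158 ± 33.8, Twsg1 at 75.4 ± 14.3 and Chrdl1 at 8.03 ± 2.67 TPM. All 8 response genes, which BMP signalling is known to induce in many tissues, were expressed. Id3 was at 356 ± 61.0, Msx1 at 307 ± 5.85 and Id2 at 232 ± 24.99 TPM, and Id4 was lowest at 3.34 ± 1.74 TPM.

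The genes that act on Smad proteins were expressed nearly throughout. All 8 ligases and deubiquitinases reached 1 TPM, with Stub1 at 252 ± 6.46, Usp15 at 47.7 ± 5.35 and Usp9x at 28.8 ± 1.25 TPM, and Nedd4l lowest at 1.69 ± 0.856 TPM. All 8 phosphatases and receptor adaptors did so too, with Fkbp1a, which binds type I receptors and keeps them inactive, at 482 ± 43.4 TPM, Ctdsp1 at 46.9 ± 6.65, Ctdsp2 at 43.9 ± 7.95 and Lemd3 at 2.54 ± 0.615 TPM. Of 10 nuclear partners and repressors 9 were expressed, among them the coactivator Crebbp at 29.9 ± 3.87, Zfp423 at 22.2 ± 3.61 and the repressor Skil at 21.4 ± 4.00 TPM, with Hivep2 lowest at 0.43 ± 0.0919 TPM.

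**Figure D4:**
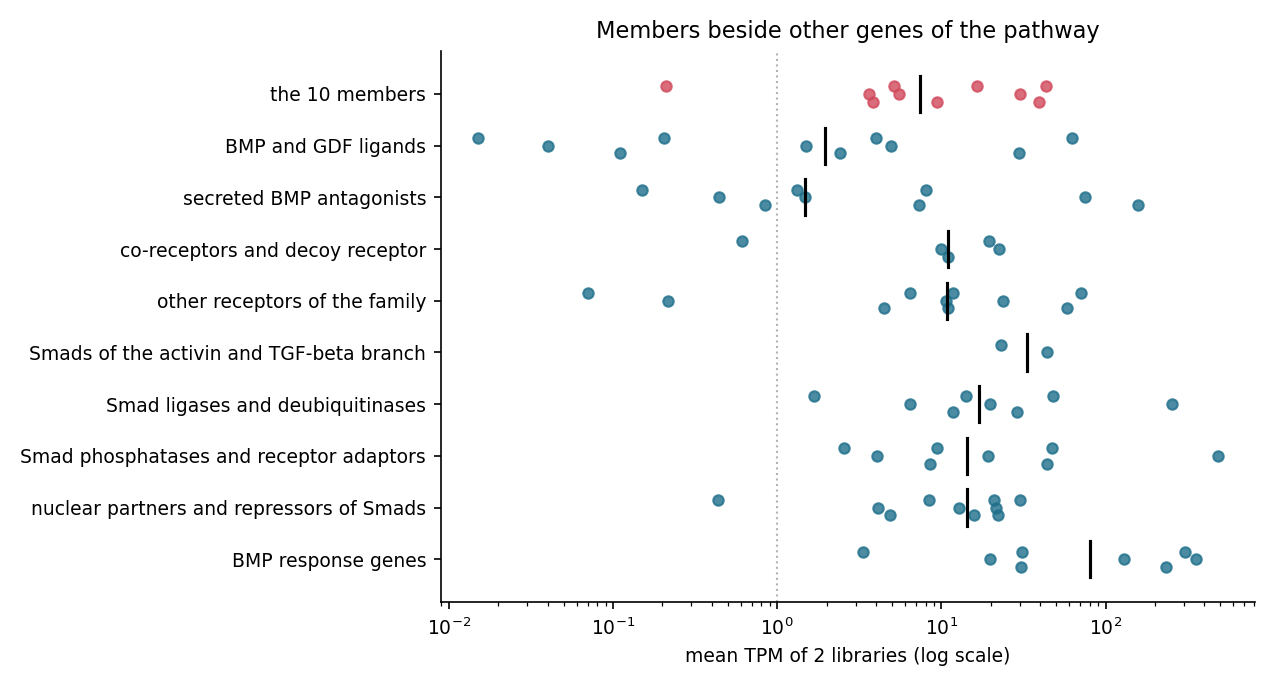
Mean TPM over 2 libraries on a log axis for the 10 members and for 9 lists of other pathway genes, with 1 point per gene and a black bar at the median of each list. The dotted line marks 1 TPM. The members span 0.21 to 43.5 TPM, and the response genes have the highest median at 80.6 TPM.

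All 10 members had a higher TPM in replicate 2, as did 69.5% of the 16860 measured genes (those averaging at least 10 expected counts). The deposited intervals of the 2 libraries lay apart, with replicate 2 higher, for 6 of the 10 (Bmpr1a, Smad5, Smad1, Bmpr2, Bmpr1b and Smad7), against 28.7% of measured genes. The median TPM difference of all measured genes was itself 0.15 on the log2 scale, against 0.30 for the members. Differences were therefore also taken on expected counts scaled by TMM, a method that centres the bulk of genes, with exact binomial 95% intervals. Such intervals cover counting error only, and with 1 pool per library these differences have no replicate check and no p-value.

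On the count scale 5 members were higher in replicate 2 with an interval above 0. They were Bmpr1b with a log2 difference of 0.50 (0.33 to 0.67), Bmpr2 with 0.45 (0.35 to 0.55), Smad7 with 0.43 (0.23 to 0.64), Bmpr1a with 0.23 (0.18 to 0.28) and Smad5 with 0.19 (0.14 to 0.24). Of all measured genes 27.2% had an interval above 0 and 26.2% below 0, and 0 members lay below. Smad9 at 0.15 (-0.64 to 0.95), Smad4 at 0.06 (-0.05 to 0.16) and Acvr1 at 0.02 (-0.23 to 0.28) had intervals that include 0. So did Smad1 at -0.02 (-0.10 to 0.06) and Smad6 at -0.07 (-0.22 to 0.08), whose sign changed to 0.23 and 0.18 when counts were scaled to the spike-ins, and Smad1 was also at 0.05 with scaling to total counts.

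On TMM-scaled counts none of the 10 was 2-fold higher, as were 4.13% of measured genes, and none was 2-fold lower, as were 1.55%. On that scale none reached 1.5-fold higher either, as did 8.14%. On the TPM scale Bmpr2 and Smad7 did so, at 1.56-fold and 1.66-fold, and with scaling to spike-ins Bmpr1b, Bmpr2 and Smad7 did, with log2 differences of 0.75, 0.70 and 0.69. The share of all measured genes past 1.5-fold was not computed on the TPM and spike-in scales. There the median log2 difference of all measured genes was itself 0.15 and 0.27, so these members cannot be set against the 8.14%. On TMM-scaled counts the median log2 difference of the members was 0.17 against 0.01 for all measured genes. Scaling to the spike-ins moved the median of all measured genes to 0.27 and that of the members to 0.42, and the number of members with an interval above 0 to 9, while 60.4% of all measured genes then lay above 0. The members' median stayed 0.16 above that of all genes under each of the 4 scalings, because a scaling shifts every gene alike.

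**Figure D5:**
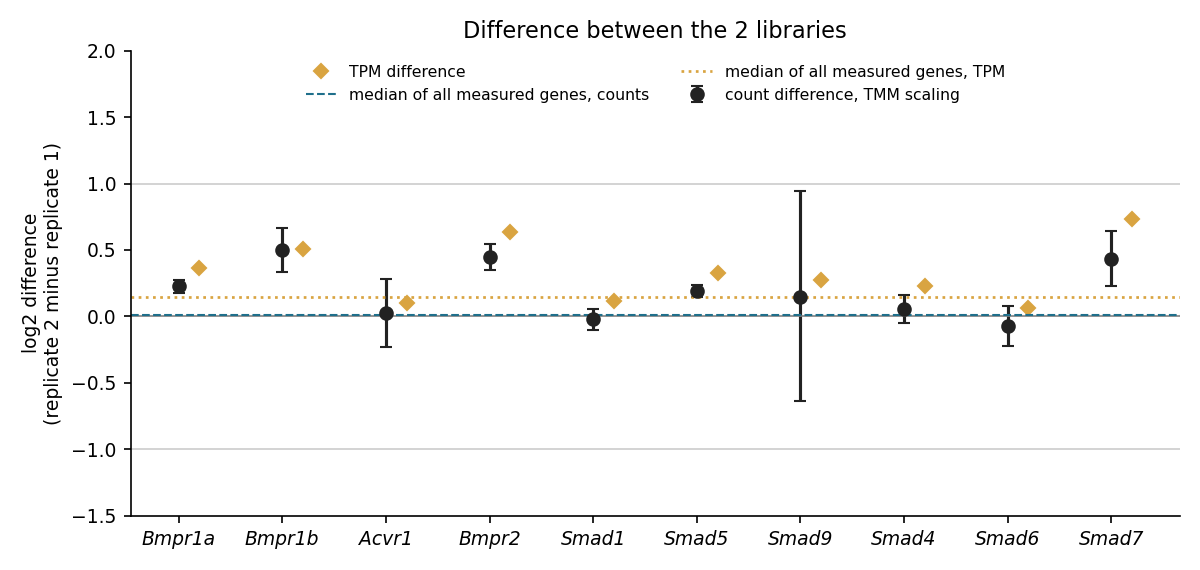
Log2 difference of each member between libraries (replicate 2 minus replicate 1). Black points are TMM-scaled counts with 95% binomial intervals, yellow diamonds are TPM, and the dashed and dotted lines are the medians of all measured genes on each scale. Bmpr1b, Bmpr2, Smad7, Bmpr1a and Smad5 lie above 0 with their count intervals, and no member reaches the grey lines at a 2-fold difference.

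Markers of several tissues also differed between the libraries. Their sums are given in TPM, and their log2 differences and intervals are those of TMM-scaled counts. The summed TPM of the 5 cartilage markers was 166 in replicate 1 and 367 in replicate 2, with all 4 measured markers above 0, and Col2a1 (log2 difference 1.18) and Acan (2.69) past 2-fold, while Matn1 was at 0 and 0.19 TPM. The 5 muscle markers summed to 28.6 and 70.4 TPM, with Myod1 (3.33), Myog (2.87) and Actc1 (1.33) past 2-fold, while Pax3 was lower at -0.26 (-0.38 to -0.13). The 6 markers of ectoderm and ridge summed to 229 and 176 TPM, and all 6 had an interval below 0. The 5 mesenchyme markers summed to 625 and 715 TPM, with 3 intervals above 0 and 2 below. The 5 endothelial markers summed to 144 and 152 TPM, with 1 interval above 0 and 2 below. For the 4 macrophage markers the sums were 15.5 and 17.5 TPM, with 2 above and 0 below. For the 4 neural markers they were 6.83 and 6.03 TPM, with the 1 measured marker below 0. The 5 erythroid markers summed to 11725 and 9550 TPM, with 0 above and 4 below. The part of these tissues in the differences of Bmpr1b, Bmpr2, Smad7, Bmpr1a and Smad5 was not tested, and pool and library cannot be told apart.

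Among the 65 measured genes of the other pathway lists, 6 were 2-fold or more higher in replicate 2 and 0 lower, against 4.13% and 1.55% of all measured genes. Among them were Gdf5, a ligand of joint and cartilage with high affinity for Bmpr1b, with a log2 difference of 2.43 (68.3 and 420 counts), and the antagonists Fst at 2.27, Nog at 2.26, Bmper at 2.12 and Chrd at 1.81. Nog rests on 6 and 33 counts. The median difference over the 65 genes was 0.16, with 36 intervals above 0 and 14 below, against 27.2% and 26.2% of all measured genes.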

How the data were processed

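Per the sample text files, the authors quantified each library separately on mm10 with the GENCODE M4 annotation. Neither aligner, quantifier nor strand setting is given in the sources used here. The deposited gene and transcript tables hold expected counts and TPM, the latter scaled by the authors over all rows including spike-ins. They also hold deposited signal columns with the bounds of the TPM interval, and the deposited percent of the gene's TPM in each transcript. GENCODE M21 (GRCm38, the assembly of mm10) supplied gene names, transcript classes and positions, and all 42 transcripts matched.

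The members, gene lists and pairs were chosen with earlier results of these data known. The genes named were all members, the genes of the pairs, the 3 highest and the lowest of each list, and any list gene past 2-fold between libraries, except that 1 list gene is not reported here; transcripts were named if leading or at 10% or more of the gene in either library. Other genes and transcripts named (markers, overlapping models and transcripts under 10%) were chosen after their values were seen. TMM factors (edgeR 4.0.16 in R 4.3.3) and, as an alternative, size factors (DESeq2 1.42.0) were computed on rounded expected counts; no count test was run, since each library is 1 pool. Genes averaging at least 10 expected counts were taken as measured. Interval coverage was tested on simulated counts that held counting noise only. The 2 libraries lay further apart than such noise allows, so that test does not give the coverage in these data. Tables and plots were made with pandas 2.3.3, scipy 1.17.1, numpy 2.4.6 and matplotlib 3.10.9 under Python 3.11.15. Protein features planned for the members were not used here, and coding sequences were read instead. The promoter windows, motifs, start sites and coding ends were added after the files were seen. No source used here names molecular identifiers on the reads, so intervals cover counting error only.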

Additional observations from a re-analysis of the deposited data

How the results depend on the processing

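The limits are the 2 pools without a contrast, an unstated interval level and unknown strand use. Of 38 alternative values for the comparisons, 35 kept their verdict and 3 moved. A count was taken to keep its verdict within 1.5-fold of the main count, and the coding share within the SD of the 2 libraries. With scaling to spike-in counts, 9 members rather than 5 had a library difference with an interval above 0. At a 1.5-fold threshold, 11 rather than 6 other pathway genes were called between libraries. By posterior mean TPM, the median coding share of the members was 98.5% rather than 99.9%. The cause of this last shift was not tested. Some counts that kept their verdict changed within the 1.5-fold margin. Calls were also counted over 15 chosen pairs and the 9 neighbours together, of which 14 and 6 were called. Smad1 against Smad5 and Smad1 against Smad4 are in both sets and were counted in each. Pairs and neighbours called fell from 20 to 15 where TPM had to differ by 1.5-fold in both libraries. Other pathway genes called rose from 6 to 9 with scaling to spike-in counts, and to 8 with total counts. Of 130 alternative values for single genes, 101 kept their verdict, 6 were now past the threshold and 23 moved. The levels that moved did so only in other units: TPM rescaled over named nuclear genes, or scaled counts per kilobase. In each of these units all members shifted by nearly the same factor, so these moves say nothing of stability. The other values that moved were transcript shares. Levels and transcript shares were held to the SD of the 2 libraries, a margin that leaving out 1 library cannot exceed. Those values, like the coding share, were therefore bound to keep their verdict without either replicate, and this says nothing of their stability. When either replicate was left out, between 20 and 22 of the pairs and neighbours were called (20 with both), 8 to 9 leading transcripts, 57 to 60 expressed pathway genes, and the coding share was 99.7% to 100%. The depth limits Smad9 most, with 26 and 33 counts. No paired analysis was possible because the series has 1 group.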
